A study of Mus musculus with 2 samples.

Results

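The enzymes that methylate, demethylate and deacetylate histones were examined in the hippocampus of young mice. The set was chosen by gene symbol alone. It took the Kmt, Setd, Setdb, Ehmt and Ezh methyltransferases with the PRC2 subunits Suz12 and Eed, the Kdm demethylases and the Hdac deacetylases. Each had an annotated protein-coding transcript, and the Y-linked Kdm5d was left out. The rule found 52 genes of 55536 annotated, or of 22015 nuclear protein-coding genes. Of these, 24 were grouped as methyltransferases or their complex partners, 17 as demethylases and 11 as deacetylases.

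Total RNA was sequenced from 10-day-old female B6CASTF1/J mice, an F1 hybrid strain. The 2 libraries, labelled biological replicates 1 and 2, form 1 group with no second condition. For each, 300 ng of RNA came from 3 pooled females, and the labels give the pools different animal numbers. The labels name a hippocampal layer but not the one taken. Ribosomal RNA had been reduced and ERCC spike-ins, synthetic control RNAs, had been added.

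Lysine methylation on histone tails marks genes for activity or silencing according to the residue: methylated H3K4 is found at active promoters and enhancers, H3K36 along transcribed genes, and H3K9, H3K27 and H4K20 in silenced chromatin. Writers place the methyl groups, erasers of the flavin-dependent and JmjC families remove them, and histone deacetylases remove acetyl groups, mostly within corepressor complexes. In hippocampal neurons these enzymes are known from memory formation and from inherited intellectual disability.

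Replicate 1 held 29858328 expected counts and replicate 2 held 32275110, of which 0.341% and 0.393% were spike-ins. The enzymes took 111756 and 111524 of these counts, and single genes held between 45.4 and 9756. All 5 markers of the hippocampal fields and all 5 of glutamatergic neurons were detected, with summed TPM (transcript abundance scaled for length and depth) of 175 and 202 for the fields. The libraries differed in cell markers. All 6 myelin markers were 1.5-fold or more higher in replicate 2 (summed TPM 194 and 570), and the 4 cycling-cell markers fell from 21.1 to 14.1. The 4 choroid plexus markers summed to 434 and 684, nearly all of it Ttr (422 and 670). Of these 4, 2 were 1.5-fold or more apart, whereas Folr1 was at 7.51 and 7.71 and Kl at 2.22 and 2.48. The part of these shifts in the values below was not tested.

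Nearly the whole set was expressed. At a TPM of 1 or more in both libraries, 51 of the 52 genes were detected, against 59.1% of nuclear protein-coding genes, and 43 reached 10 TPM. The median was 22.0 TPM in replicate 1 and 19.2 in replicate 2, a mean of 20.6 ± 1.96 (SD, n = 2), where the 13019 detected coding genes had a median of 15.4. Levels are from the alignment-based gene table unless another is named, and orders hold for that table. The plot of levels by enzyme group spans 0.80 to 94.3 TPM.

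**Figure D1:**
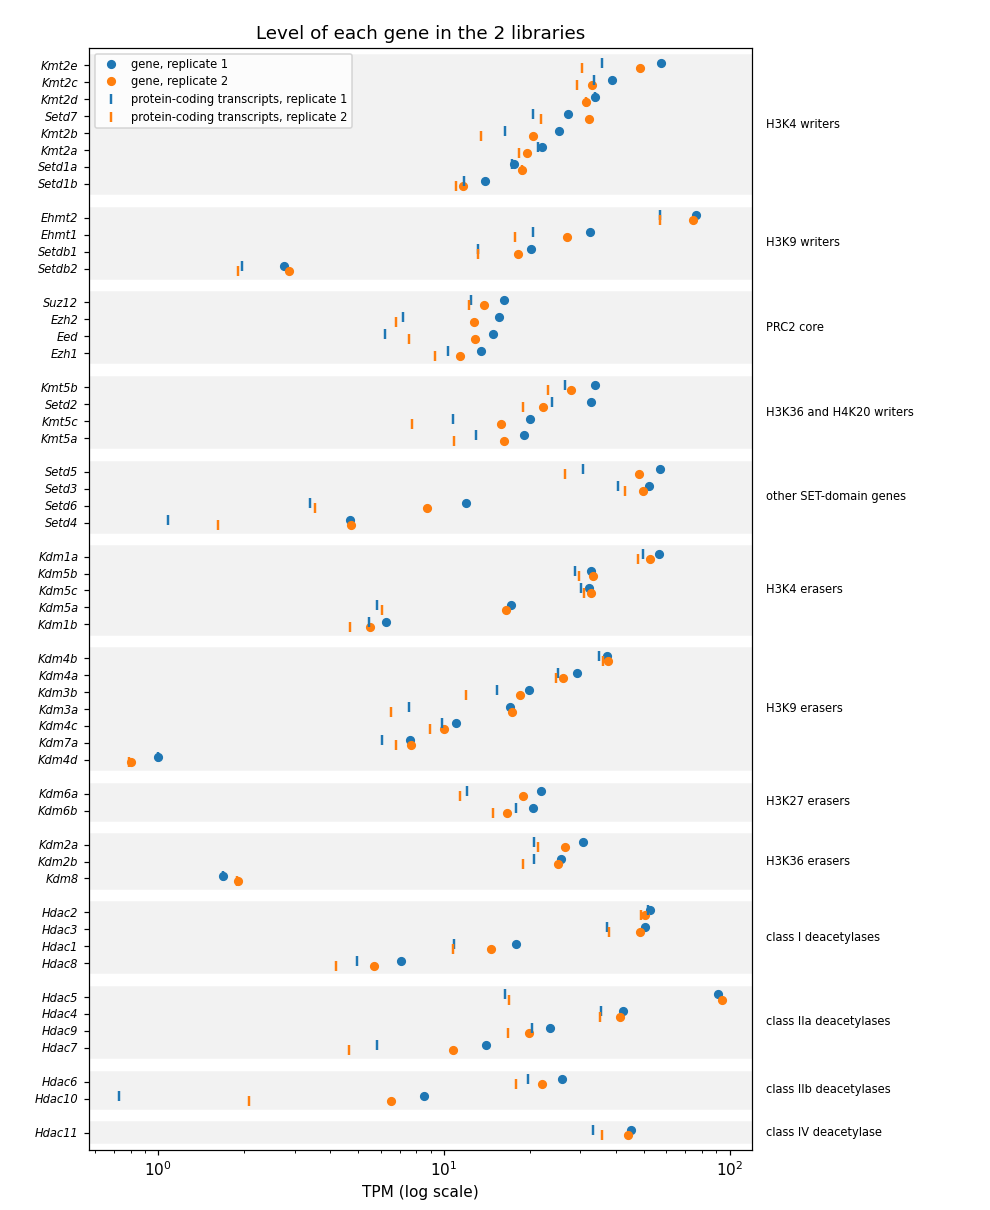
TPM on a log scale for each gene in replicate 1 (blue) and replicate 2 (orange), grouped by the histone residue or the deacetylase class. Dots count all transcripts of a gene and ticks only its protein-coding transcripts. In this alignment-based table Hdac5 is at the top by all transcripts (90.8 and 94.3 TPM) but at 16.3 and 16.9 by coding transcripts, and Kdm4d is lowest at 1.00 and 0.80.

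The genes grouped as writers of H3K4 were present together. All 8 were detected, and they summed to 236 and 216 TPM, more than any other group, but no other group had as many genes. Their median, 26.3 and 26.0 TPM, was below that of the H3K4 erasers, the other SET-domain genes and the deacetylases of classes I, IIa and IV. Kmt2e, a SET-domain protein that binds methylated H3K4, led the group with 57.5 and 48.7 TPM. Whether it places the mark was not examined here. Kmt2c (38.8 and 33.0) and Kmt2d (33.9 and 31.4), which methylate H3K4 at enhancers, followed. Setd7, which adds 1 methyl group to H3K4 and to many other proteins, was at 27.3 and 32.2 TPM. The trithorax relatives Kmt2b and Kmt2a were at 25.3 and 20.6 and at 22.1 and 19.6. Setd1a (17.7 and 18.7) and Setd1b (13.9 and 11.7), the catalytic subunits of complexes that trimethylate H3K4 at promoters, stood lowest. Of the partners listed for their COMPASS complexes, 9 of 9 were detected with a median of 28.6 and 27.6 TPM, and Hcfc1 at 31.9 and 29.7 had the highest mean. Men1, at 32.2 and 27.8, was above it in replicate 1. Kmt2e did not overlap any other gene of the group, whereas the libraries of Kmt2a and Kmt2b overlapped.

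Among H3K9 writers, Ehmt2, known as G9a, stood out at 76.3 and 74.4 TPM. Its partner in the same dimethylating complex, Ehmt1, was at 32.4 and 26.9. Setdb1, which trimethylates H3K9 at transposable elements, was at 20.1 and 18.2, and its relative Setdb2 at 2.75 and 2.87. The 4 genes did not overlap between neighbours in this order.

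By all transcripts in the alignment-based table the PRC2 core, which methylates H3K27, was even in level and below most of the set. Its scaffold Suz12 was at 16.2 and 13.9 TPM, Eed, which binds the finished mark, at 14.9 and 12.8, and the catalytic subunits Ezh2 and Ezh1 at 15.6 and 12.7 and at 13.5 and 11.4. Neighbours in this order overlapped, whereas Suz12 lay above Ezh1 in both libraries. Each was higher in replicate 1 by TPM, as were 41 of the 52 enzymes and 63.2% of the detected coding genes. By scaled counts 2 of the 4, Suz12 and Eed, were higher in replicate 2. By protein-coding transcripts only, the 4 were less even, with Suz12 at 12.42 and 12.25 TPM and Eed at 6.24 and 7.53. They were also less even by all transcripts in the read-based table, with Suz12 at 30.6 and 35.0 TPM and Eed at 21.6 and 19.2. Of the 8 other PRC2 partners listed, 7 were detected, led by the histone-binding Rbbp7 (70.6 and 75.2) and Rbbp4 (54.3 and 62.7), which also serve deacetylase complexes.

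The writers of H3K36 and H4K20 summed to 106 and 82.2 TPM. Setd2, which trimethylates H3K36 behind the polymerase, was at 32.8 and 22.3, the widest gap between libraries of any of the 4. For H4K20, Kmt5b (33.7 and 27.9) exceeded Kmt5c (20.1 and 15.8), both of which extend a mark begun by Kmt5a (19.1 and 16.2). Other SET-domain genes split: Setd5, mutated in intellectual disability, was at 56.9 and 48.2 TPM and Setd3, which methylates actin, at 52.3 and 49.8. Setd6, which methylates a subunit of NF-kappaB, was at 12.0 and 8.73 and Setd4 at 4.70 and 4.71.

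Of the H3K4 erasers, Kdm1a, the flavin-dependent LSD1 of the CoREST complex, was highest of all demethylases at 56.6 and 52.7 TPM. Its relative Kdm1b was at 6.29 and 5.51. The JmjC enzymes Kdm5b (32.6 and 33.2) and Kdm5c (32.1 and 32.8), which remove trimethyl H3K4, lay between, with less than 1 TPM from one to the other in each library. Kdm5c, on the X chromosome, is known from X-linked intellectual disability. Kdm5a was at 17.1 and 16.5 TPM.

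The 7 H3K9 erasers had a median of 17.1 and 17.4 TPM. Kdm4b (37.4 in both libraries) and Kdm4a (29.2 and 26.1), which act on trimethyl H3K9 and H3K36, led. Kdm3b and Kdm3a, specific for lower methyl states, were at 19.9 and 18.4 and at 17.1 and 17.4, followed by Kdm4c at 11.0 and 10.0 and Kdm7a at 7.60 and 7.68. Kdm4d, otherwise known from the testis, held 53.5 and 45.4 counts. Its TPM of 1.00 and 0.80 made it the 1 gene of the set that missed detection.

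For H3K27, the X-linked Kdm6a was at 21.9 and 18.9 TPM and Kdm6b, an inducible enzyme of the same family, at 20.6 and 16.6. The H3K36 erasers Kdm2a (30.7 and 26.6) and Kdm2b (25.7 and 25.1), which bind unmethylated CpG islands, lay close without overlap, and Kdm8 was at 1.69 and 1.90.

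Class I deacetylases, the nuclear enzymes of the corepressor complexes, were led by Hdac2 (52.8 and 50.7 TPM) and Hdac3 (50.6 and 48.5). Hdac1, which shares its complexes with Hdac2, was at 17.9 and 14.6, and Hdac8 at 7.09 and 5.71. In class IIa, which shuttles between nucleus and cytoplasm and binds MEF2 factors, Hdac5 had the highest level of the whole set at 90.8 and 94.3 TPM. In the read-based table, a second set of estimates that the authors deposited per transcript, it was at rank 4, behind Ehmt2, Setd3 and Kmt2e. Hdac4 followed at 42.4 and 41.4, Hdac9 at 23.6 and 19.8, and Hdac7 at 14.0 and 10.8. Hdac6, which deacetylates tubulin in the cytoplasm, was at 25.9 and 22.0, its class IIb relative Hdac10, a polyamine deacetylase, at 8.51 and 6.54, and the class IV enzyme Hdac11 at 45.1 and 44.1. The corepressor scaffolds were present throughout: 26 of 26 listed partners were detected, led by the NuRD remodeller Chd3 (270 and 248) and by Ncor1 (110 and 95.7), which carries Hdac3.

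In all, 78 related genes and partners outside the set were matched and 77 detected. The missing one was the PRC2 accessory gene Phf19, at 1.51 and 0.65 TPM. Other writers were led by Nsd1 (68.2 and 67.0), which dimethylates H3K36, and other erasers by Jmjd1c (50.9 and 43.6). Of the 7 sirtuins, NAD-dependent deacetylases that are unrelated to the Hdac genes, Sirt2, abundant in oligodendrocytes, was highest at 73.2 and 92.3. The 10 histone acetyltransferases, whose marks the deacetylases remove, were all detected with a median of 26.1 and 25.3 TPM.

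Within 19 pairs of related genes, the log2 ratio of TPM + 0.1 was taken in each library and called where both libraries had 1 sign and the mean exceeded 2 SD. This was met by 15 pairs. The rule was not applied to pairs of other genes, so this count has no background to set it against. With 2 libraries the exact sign-flip test cannot go below p = 0.5, so the call describes the spread between them. By that measure the erasers Kdm1a over Kdm1b differed most, by 3.15 and 3.23 in the libraries (3.19 ± 0.06, SD, n = 2), or 9.14-fold. Hdac3 over Hdac8 came next at 2.82 and 3.06, a mean of 2.94 ± 0.17. The writers Setdb1 over Setdb2 differed by 2.83 and 2.62. Hdac2 exceeded Hdac1 by 1.56 and 1.79, and Hdac6 exceeded Hdac10 by 1.59 and 1.74. Ehmt2 exceeded Ehmt1 by 1.23 and 1.46. In each of these pairs both libraries put the same member first, as the call requires.

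Of the 15 called pairs, 9 differed 1.5-fold or more. The smallest was Kdm5c over Kdm5b at -0.03 and -0.02, a 1.01-fold difference that passed because the libraries were so alike. The pairs Kdm2a with Kdm2b, Kdm3b with Kdm3a, Kmt2a with Kmt2b and Kmt2c with Kmt2d were not called, with means between -0.13 and 0.17.

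**Figure D2:**
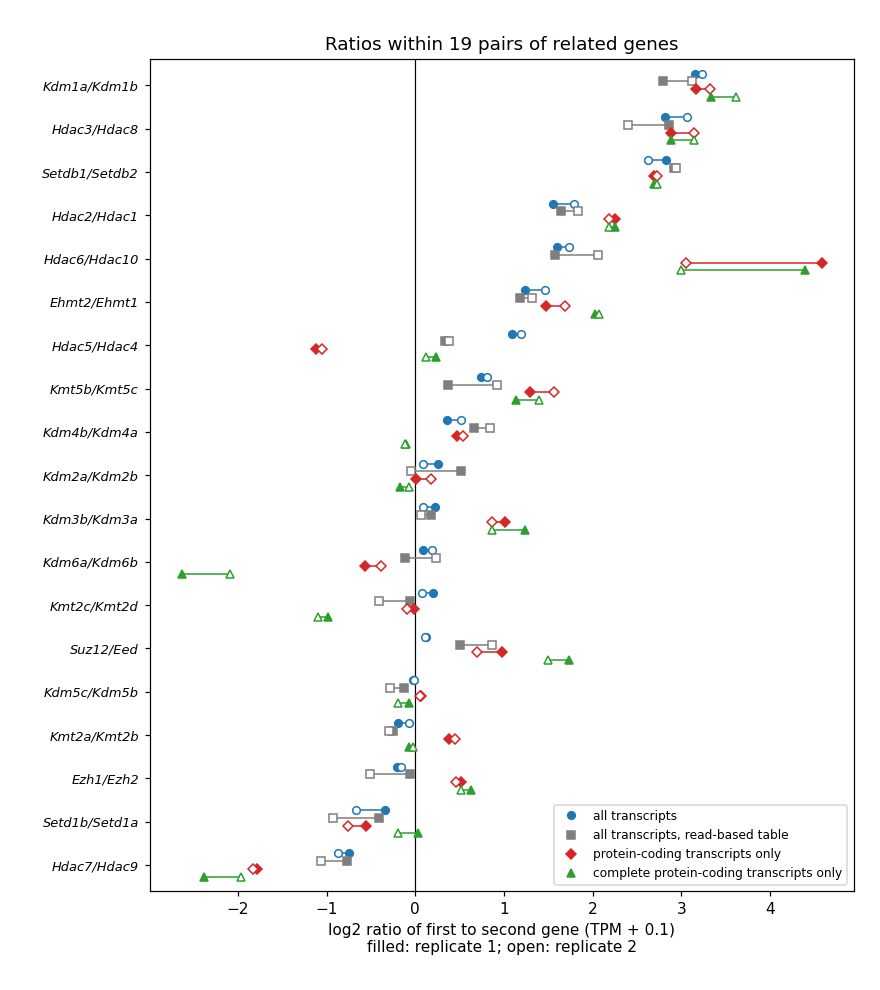
The log2 ratio of TPM + 0.1 within 19 pairs of related genes, filled for replicate 1 and open for replicate 2. Blue circles use all transcripts, grey squares the read-based table, red diamonds protein-coding transcripts and green triangles complete ones. Kdm1a over Kdm1b stays near 3 in all 4, whereas Hdac5 over Hdac4 is 1.14 on average by all transcripts and -1.09 by coding ones.

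Which transcripts were counted decided several of these orders. In the read-based table the mean had the same sign in 15 of the 15 called pairs, but the call held in 10. It was lost for Ezh1 with Ezh2, Kdm5c with Kdm5b, Setd1b with Setd1a, Kmt5b with Kmt5c, and Kdm6a with Kdm6b, whose libraries had opposite signs there (-0.11 and 0.23). With protein-coding transcripts only, 11 kept the sign of the mean and the call. With complete ones, which have an annotated start and stop codon, 12 kept the sign and 10 of these the call. In 8 pairs the call and direction held in all 4 ways of counting: Kdm1a over Kdm1b, Hdac3 over Hdac8, Setdb1 over Setdb2, Hdac2 over Hdac1, Hdac6 over Hdac10, Ehmt2 over Ehmt1, Suz12 over Eed and Hdac9 over Hdac7. Ezh2 exceeded Ezh1 slightly by all transcripts, at -0.21 and -0.16 for Ezh1 over Ezh2. By coding transcripts Ezh1 was ahead, at 0.52 and 0.45. Kdm6a exceeded Kdm6b by 0.09 and 0.19 by all transcripts and was lower by coding ones, at -0.56 and -0.38.

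Hdac5 showed the effect most. Its gene level placed it at rank 1 of the 52, but only 16.3 and 16.9 TPM belonged to protein-coding transcripts, which placed it at rank 26. Its coding transcripts held more in the read-based table, 31.5 and 29.97 TPM, at rank 20. Retained-intron transcripts held 46.9% and 43.7% of its TPM, led by Hdac5-211, a model of 754 bases, at 18.7 and 20.8 TPM. Hdac5-205, annotated as a target of nonsense-mediated decay, the pathway that removes messages with early stop codons, held 13.0% and 12.4%. TPM weights short models heavily: in expected counts, coding transcripts held 41.3% and 41.0% of Hdac5. Hdac5-211 was at 1.64 and 5.56 TPM in the read-based table, where the whole gene was at 90.8 and 102, so the estimate of single models differed between tables far more than that of the gene. Against Hdac4, Hdac5 was ahead by 1.10 and 1.19 with all transcripts, by 0.34 and 0.38 with those of the read-based table, and behind by coding transcripts, at -1.12 and -1.06. With complete coding transcripts Hdac5 was ahead again, by 0.24 and 0.12, since Hdac4-205, a coding fragment of 849 bases, held 42.7% and 39.8% of Hdac4. The order of the 2 genes was therefore not fixed by these data. In the alignment-based table Ehmt2 was at rank 1 and Hdac2 at rank 2 by both coding measures, with 57.3 and 57.0 TPM and 51.8 and 49.1 TPM in coding transcripts. In the read-based table the order by coding transcripts was Setd3, Ehmt2, Kdm1a and Hdac2.

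Across the set, 464 annotated transcripts were measured, of which 208 were protein-coding, 143 retained an intron, 43 were targets of nonsense-mediated decay and 70 were other processed transcripts. Retained-intron transcripts made up 18.8% and 16.6% of the summed TPM of the 52 enzymes and 9.35% and 7.80% of that of nuclear protein-coding genes. In the read-based table the shares were 19.3% and 17.2% against 10.4% and 9.04%. In expected counts they were 6.89% and 5.71% against 4.89% and 3.87%. The enzymes were above the coding genes in both libraries by each measure, and the gap was narrower in counts. Among the 41 enzymes with such a transcript the median share was 21.5% and 18.0%, and it was 13.1% and 10.3% over 7576 coding genes.

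The shares ranged widely among the enzymes. Coding transcripts were under 50% of TPM in both libraries for 7 of the 51 detected genes: Hdac5, Hdac10, Setd4, Setd6, Kdm5a, Hdac7 and Kdm3a. That is 13.7%, against 8.30% of the detected coding genes. Again 6 of the 7 were under 50% in the read-based table, and Hdac7 was at 59.8% and 59.5%. In expected counts 3 were, Hdac5, Hdac10 and Setd4. In Hdac10 coding transcripts held 8.58% and 31.6% of TPM, so the 2 libraries disagreed on its makeup. Kdm5a, an H3K4 eraser, held 33.9% and 36.6% by TPM but 73.8% and 72.3% in expected counts. At the other end 7 genes were at 90% or more in both libraries: Kmt2d, Kdm8, Setd1a, Hdac2, Kmt2a, Kdm5c and Kdm4b. That is 13.7% as well, against 43.4% of the detected coding genes. All 7 were also at 90% or more in expected counts, but in the read-based table only Kmt2d, Kdm8 and Kdm5c were. Hdac2 was at 73.9% and 84.6% there.

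**Figure D3:**
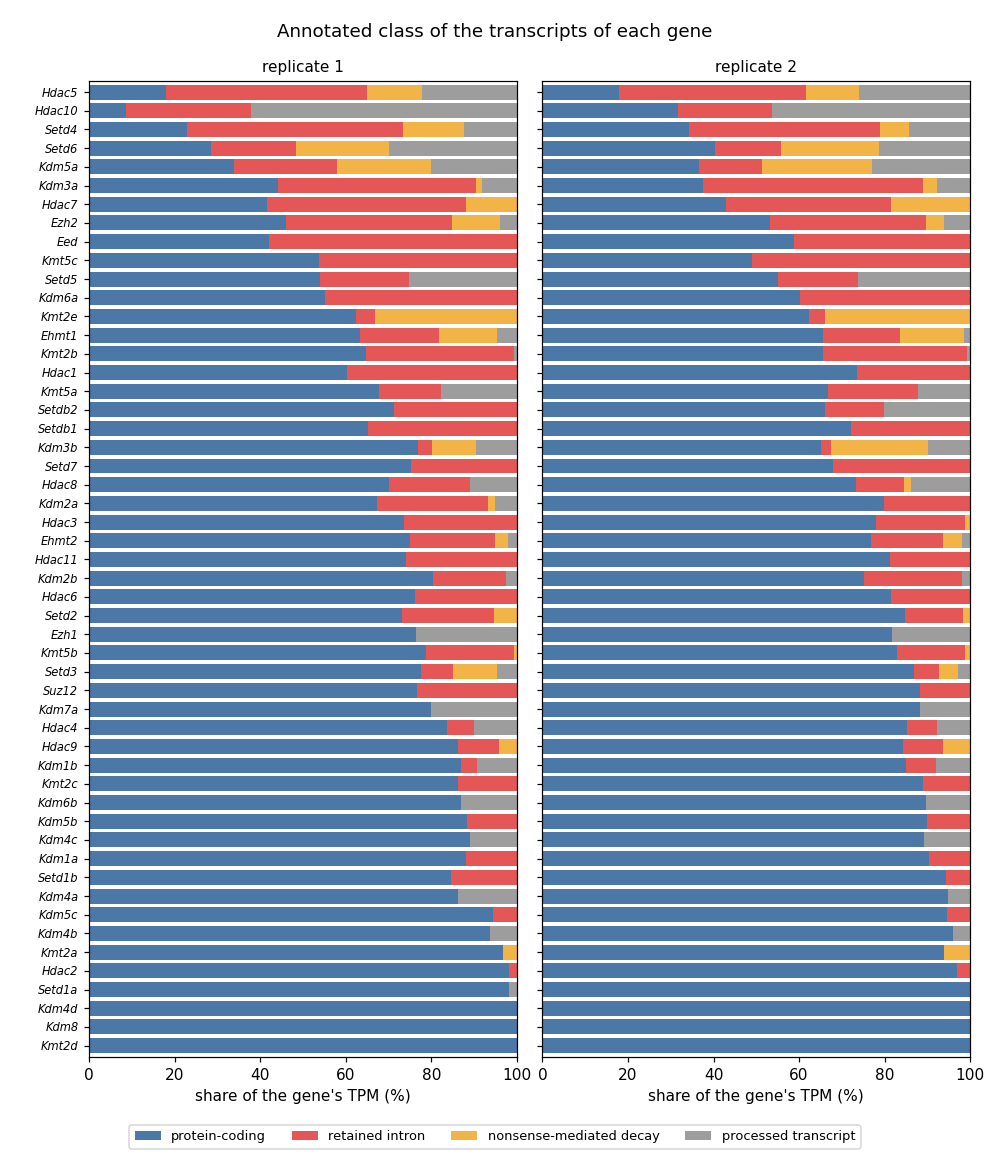
Share of each gene's TPM in 4 annotated transcript classes, replicate 1 on the left and replicate 2 on the right, ordered by the coding share. Hdac5 and Hdac10 are at the top with the least coding share, and Kmt2d is at 100% in both libraries.

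Eed, the PRC2 subunit that reads the mark, had 58.0% and 41.3% of its TPM in retained-intron transcripts, Kmt5c had 46.2% and 51.1% and Kdm6a 44.9% and 39.8%. Hdac1 had 39.6% and 26.5%, where its partner Hdac2 had 1.84% and 3.14%. In the read-based table Hdac1 had 43.3% and 24.9% and Hdac2 had 26.1% and 15.4%, so the size of that gap changed with the table. The retained-intron share was higher in replicate 1 in 33 of the 41 enzymes (80.5%), and the same held for 72.8% of coding genes. Total RNA includes nuclear, partly spliced RNA, and its part in these shares was not tested. The transcript with the highest TPM was the same in both libraries for 45 of the 51 detected genes, and in both tables as well for 32.

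Some genes differed in the protein that their transcripts encode. An exon was called alternative where transcripts that include it and transcripts that skip it each held 10% to 90% of the TPM in both libraries and both tables. Of 152 skippable exons with a summed TPM of 5 or more, in 36 genes, 42 exons in 16 genes met this. Of those, 22 were wholly coding and a multiple of 3 bases. For 14 of the 22, in 8 genes, the exon was skipped alone: a protein-coding transcript with it and one without it joined the same neighbouring splice sites, so that the choice keeps the reading frame there. The other 8, of Kmt2e, Kmt2c, Kdm3b, Hdac10 and Setd5, had no such pair of coding transcripts and are not described further. The shares below count every annotated transcript that includes or skips the exon.

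Kdm1a carried 2 of them, and both are shown because they change the best expressed demethylase. The first is an exon of 12 bases on the minus strand at mm10 chr4:136563438-136563449, which adds 4 codons inside the catalytic domain and is known as the neuronal exon of LSD1. The second is an exon of 60 bases at chr4:136582040-136582099, which adds 20 codons near the N-terminus. Sequences are from the GENCODE M21 transcripts, in the sense of the gene, with the exon in capitals and 30 coding bases on each side.
Kdm1a-208, with the exon of 12 bases: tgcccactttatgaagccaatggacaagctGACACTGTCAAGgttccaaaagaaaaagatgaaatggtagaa
Kdm1a-202, without it: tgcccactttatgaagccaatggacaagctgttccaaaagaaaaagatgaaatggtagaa
Kdm1a-202, with the exon of 60 bases: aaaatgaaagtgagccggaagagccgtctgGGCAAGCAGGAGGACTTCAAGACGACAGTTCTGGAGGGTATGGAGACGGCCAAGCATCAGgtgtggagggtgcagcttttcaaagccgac
Kdm1a-203, without it: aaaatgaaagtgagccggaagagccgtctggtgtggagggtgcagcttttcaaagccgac

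The 12-base exon was included in 25.5% and 23.8% of the TPM that spans it, and in 33.0% and 31.7% in the read-based table. Skipping was thus the larger form in both libraries and tables. The exon is carried by a single annotated model, Kdm1a-208, a fragment of 965 bases at 12.7 and 11.3 TPM (deposited intervals 10.1 to 14.7 and 8.98 to 13.3). Whole transcripts with the exon are not in the annotation, so the share rests on that fragment. The 60-base exon was included in 52.1% and 62.2%, and in 57.4% and 64.5% in the read-based table, so inclusion was the larger form.

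The other 12 in-frame exons were in writers, in the eraser Kdm6a and in Hdac7. In Ehmt1 an exon of 144 bases was included in 73.4% and 64.8% of TPM and one of 138 bases in 84.0% and 89.4%. An Ezh2 exon of 126 bases was included in 38.0% and 37.9%, and in 53.0% and 51.8% in the read-based table, so the larger form changed with the table. In Kmt2d an exon of 48 bases was included in 18.8% and 17.2%, again through a fragment, Kmt2d-204 of 899 bases. In Kmt5b an exon of 69 bases was included in 62.0% and 64.4%, and in 81.3% and 76.5% in the read-based table. For 11 of the 14 exons the 2 libraries lay closer together than the means of the 2 tables.

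**Figure D4:**
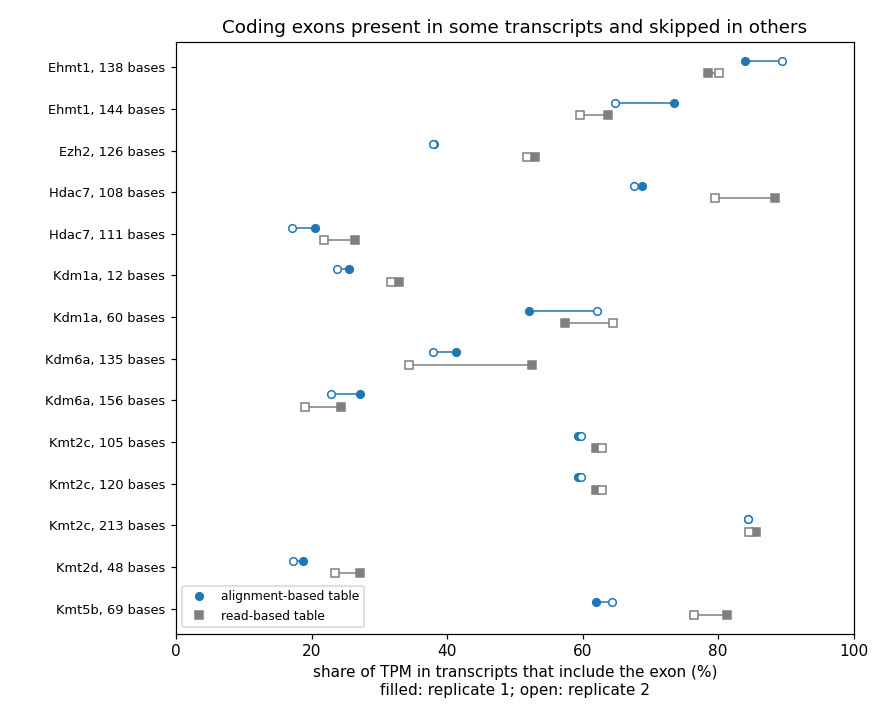
Share of TPM in transcripts that include each of 14 coding exons whose length is a multiple of 3 and that are skipped alone in some coding transcripts, filled for replicate 1 and open for replicate 2, in the alignment-based table (blue) and the read-based table (grey). The Kdm1a exon of 12 bases lies between 23.8% and 33.0%.

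Hdac9 differed at the end of its coding sequence. Hdac9-201, a complete transcript with 1764 coding bases that ends before the deacetylase domain and is known as MITR, led the gene at 9.49 and 9.04 TPM. The long Hdac9-205, with 3192 coding bases, was at 4.05 and 3.54, and the deposited intervals of the 2 forms did not overlap (8.39 to 9.89 against 3.53 to 4.26 in replicate 1). Of the TPM in complete coding transcripts, 64.1% and 68.9% used another stop codon than the longest form, and 70.8% and 69.4% did in the read-based table. The point where the 2 forms part is shown because it decides whether the message encodes a deacetylase. Hdac9 lies at mm10 chr12:34047580-34917095 on the minus strand. The last 30 shared coding bases are in lower case and the bases that follow are in capitals. The short form has 51 coding bases after this point, its stop codon included, and the long form has 1479.
Hdac9-201, short form: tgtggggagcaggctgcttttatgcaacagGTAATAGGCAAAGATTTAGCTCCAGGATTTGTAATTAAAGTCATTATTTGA
Hdac9-205, long form: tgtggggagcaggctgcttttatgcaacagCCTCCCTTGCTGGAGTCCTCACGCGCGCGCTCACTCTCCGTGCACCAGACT

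In Kdm2b the choice was at the start. Kdm2b-201, with 2328 coding bases, is the short form that lacks the JmjC demethylase domain, and it led with 12.8 and 10.0 TPM. Forms with another start codon than the longest, Kdm2b-201 among them, held 89.6% and 84.3% of complete coding TPM. Kdm2b-201 alone held 49.8% and 40.0% of the TPM of the gene. Whether the other forms keep the JmjC domain was not examined. In Kdm5b, 70.0% and 72.4% used another stop codon than the longest form, through Kdm5b-203 at 20.2 and 21.6 TPM. In the alignment-based table Ezh1 could not be resolved: Ezh1-202 was at 0.00 and 6.45 TPM and Ezh1-203 at 6.26 and 0.00. The deposited intervals were wide (0.02 to 4.55 and 1.13 to 6.41 for Ezh1-202). The 2 models together held 6.26 and 6.45 TPM there, so the libraries differed in the split between the models and not in their sum. In the read-based table Ezh1-202 led the gene in both libraries, with 32.9% and 43.4% of its TPM.

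The 2 libraries were then compared gene by gene in rounded expected counts, scaled by TMM. The p-values are from an exact two-sided binomial test adjusted over all 20544 genes tested. They compare these 2 libraries, not conditions, and there is no replicate check on them. None of the 52 enzymes was 1.5-fold or more apart, where 15.4% of all genes tested were, and 1.61% of the 12072 nuclear protein-coding genes with 200 or more counts. Differences beyond counting error were found for 16 enzymes (30.8%), against 26.9% of all genes and 36.3% of those coding genes, a share near the background. Ratios ran from -0.32 to 0.23 on the log2 scale with a median of -0.03, where the coding genes had a median of 0.04. By TPM, 41 of the 52 were higher in replicate 1, and 63.2% of the coding genes detected at 1 TPM in both libraries were. By scaled counts 28 were. On that scale 46.2% of the enzymes were higher in replicate 2, against 59.5% of the coding genes with 200 or more counts.

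**Figure D5:**
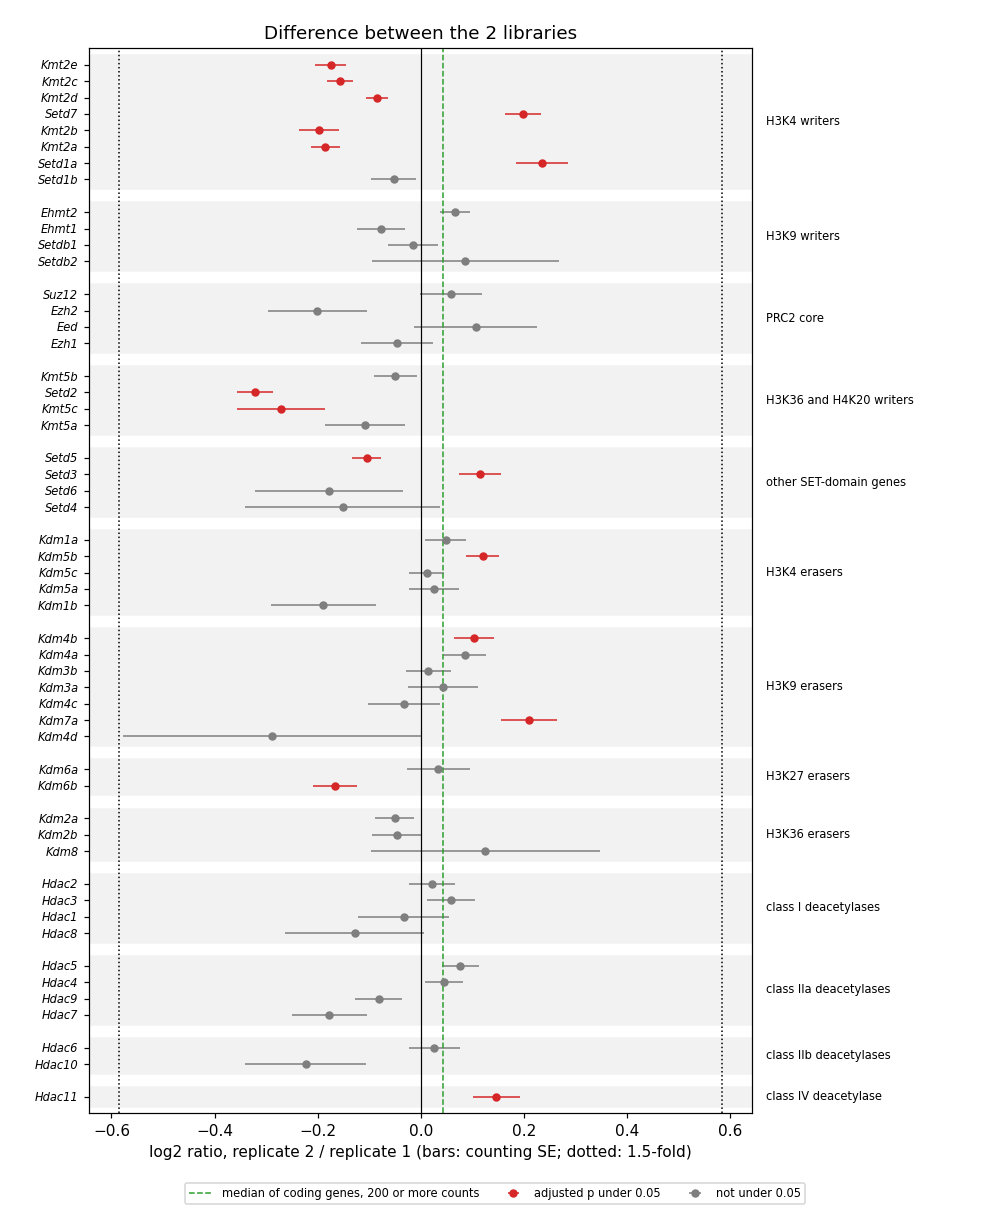
The log2 ratio of replicate 2 to replicate 1 for each enzyme, with bars of 1 counting SE, in red where the exact test gave an adjusted p under 0.05. All 52 lie inside the dotted 1.5-fold lines, and the 5 Kmt2 genes lie to the left of 0.

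Of the 16, 9 were higher in replicate 1 and 7 in replicate 2. Among them were 7 of the 8 genes grouped as H3K4 writers, where 36.3% of the coding genes with 200 or more counts were called. The test calls smaller ratios at higher counts, and this group includes the best counted enzyme, Kmt2d, with 9756 counts in replicate 1. All 5 Kmt2 genes were lower in replicate 2. Kmt2a fell from 5538 to 4963 counts, a log2 ratio of -0.19 ± 0.03 (counting SE) with an adjusted p of 8.8e-10 by the exact test. Kmt2b was at -0.20, Kmt2e at -0.17, Kmt2c at -0.16 and Kmt2d at -0.08. The other 2, Setd1a at 0.23 ± 0.05 and Setd7 at 0.20 ± 0.03, were higher in replicate 2, so the group did not move as one.

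Setd2 had the widest gap, with 3842 and 3132 counts, a log2 ratio of -0.32 ± 0.03 and an adjusted p of 5.97e-19 by the exact test. Kmt5c (-0.27), Kdm6b (-0.17) and Setd5 (-0.10) were also higher in replicate 1. Kdm7a (0.21), Hdac11 (0.15), Kdm5b (0.12), Setd3 (0.11) and Kdm4b (0.10) were higher in replicate 2. Of the 16, 15 kept their call and direction in the read-based table, and Kmt2d, at -0.046 there, lost it. Of the 78 related genes and partners, 0 were 1.5-fold or more apart and 17 (21.8%) differed beyond counting error by the exact test, 10 higher in replicate 2 and 7 in replicate 1. In bulk RNA, fewer cells of a type and less RNA per cell cannot be told apart, and the part of the myelin, choroid plexus and cycling-cell shifts in these differences was not tested. With total-count scaling the split was 19 higher in replicate 1 and 2 in replicate 2, and with spike-in scaling 46 and 0, so the directions of small ratios hold relative to the other genes.

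Some values carry limits of sequence. Reads of Setd3, Kdm2b, Setdb1, Setd1a, Hdac1 and Kdm4d were shared with other genes in part, as their counts were not whole. Exons of Kmt2e, Kdm2b, Setdb1, Kdm5a, Hdac7 and Kdm1b overlap a coding gene on the opposite strand (Srpk2, Rnf34, Cers2, Ccdc77, Slc48a1 and Dek), and those of Setd1a overlap the coding Gm49388 on the same strand (2.00 and 0.93 TPM). The sources used here do not say whether strand was used in counting. The X-linked Kdm5c and Kdm6a have near copies on the Y chromosome.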

How the data were processed

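Gene and transcript tables of 2 kinds were used for each library, both deposited by the authors for build mm10 and GENCODE M21. The alignment-based tables give expected counts, TPM and FPKM per gene and transcript, per the file headers, with the authors' deposited bounds of a TPM interval. The read-based tables give estimated counts and TPM per transcript, which were summed per gene. The programs, their versions and the use of strand: not given in the sources used here. The 26248 numbered entries without a GENCODE gene, with 3 and 4 counts, were left out.

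The genes, groups, pairs and lists were chosen with earlier results of these data known. Every member could be named, and of each other list up to 3 genes with the highest TPM, and Phf19 was named after its value was seen. Genes were detected at 1 TPM. Pair ratios used 0.1 TPM as pseudocount. Library ratios used expected counts rounded to whole numbers, TMM effective sizes from edgeR 4.0.16, 0.5 counts as pseudocount, and genes with 10 or more counts summed. Exact binomial p-values were adjusted by Benjamini-Hochberg with calls under 0.05. DESeq2 1.42.0 size factors, spike-in and total scaling, other filters, FPKM and the read-based table were alternatives. Analyses ran in R 4.3.3 and Python 3.11.15 and were tested on simulated data. Intervals and p-values cover counting error only.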

Additional observations from a re-analysis of the deposited data

Results flagged for a closer look

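The read-based table held estimated counts for the Y-linked copies of 2 X-linked enzymes, although both pools were of females. Kdm5d, the copy of Kdm5c, had 131.6 in replicate 1 and 89.54 in replicate 2. Uty, the copy of Kdm6a, had 123.0 and 93.07. These were 3.27% and 2.18% of the counts of Kdm5c and 10.4% and 7.45% of those of Kdm6a in that table. In the alignment-based table Kdm5d was at 0 and 0 and Uty at 0 and 2. The cause was not tested.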

How the results depend on the processing

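Having 2 libraries limits the precision of every level, and with 1 group no result could be set against another condition. No paired analysis was possible because the 2 libraries form 1 group. The median member TPM was 20.6, and 33.2 in the read-based table, 46.0 when rescaled to nuclear protein-coding genes, 16.3 with protein-coding and 13.0 with complete protein-coding transcripts, the last 2 chosen after seeing the data. Leaving out a library gave 19.2 to 22.0. Detection ranged from 48 to 52 members and the called pairs from 11 to 17. Reversed pairs with coding transcripts were Ezh1 over Ezh2 (0.49), Hdac5 over Hdac4 (-1.09), Kdm5c over Kdm5b (0.063) and Kdm6a over Kdm6b (-0.47), and with complete ones Ezh1 over Ezh2 (0.57), Kdm4b over Kdm4a (-0.11) and Kdm6a over Kdm6b (-2.36). The retained-intron share was 17.7%, 16.6% to 18.8% without 1 library, and 6.30% in expected counts, a measure added after seeing the data, since short models weigh less there.

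Spike-in scaling moved the median of all genes by -0.29 (log2) and that of the members to -0.32. It put 1 member and 4875 genes 1.5-fold apart, against 0 and 3162, and 46 members beyond counting error, 46 higher in replicate 1 and 0 in replicate 2, against 16, 9 and 7. It reversed Kdm4b (-0.19), Hdac11 (-0.14), Setd7 (-0.091), Kdm5b (-0.17), Setd1a (-0.055), Kdm7a (-0.079) and Setd3 (-0.17). Total-count scaling gave 19 and 2, and in the read-based table there were 12 higher in replicate 2. Genes 1.5-fold apart were 9670 with no count filter, 352 at 200 or more counts, and 1237 were 2-fold apart. The cause of these moves was not tested, beyond the change in genes tested or in fold.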
